A study of Homo sapiens with 6 samples.

Results

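The genes described here are TRIM24, its relatives TRIM33, TRIM28 and TRIM66, and SPOP, and the question put to the data is whether TRIM24 protein was found at them. The regions were the TRIM24 peaks whose midpoint lay in the body of a gene or within 10 kb of it, and they numbered 20 of 37470 peaks in 3 lists. There were 5 such peaks among 9744 in LNCaP cells given vehicle, 5 among 7105 in LNCaP cells given dihydrotestosterone (DHT), and 10 among 20621 in LNCaP-abl cells. With the gene models used, TRIM66 had no peak in any list, and SPOP had a peak in the LNCaP-abl list alone.

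TRIM24 occupancy was measured by chromatin immunoprecipitation and sequencing (ChIP-seq) with an antibody against TRIM24 from Bethyl. LNCaP is a human prostate cancer line that depends on androgen, and LNCaP-abl was derived from LNCaP as a castration-resistant model. LNCaP cells were kept for 72 h in medium with charcoal-treated, steroid-depleted serum and then received ethanol vehicle or 10 nM of the androgen DHT for 4 h. Such serum was used throughout for LNCaP-abl cells, and these received vehicle for 4 h. Each condition had 1 TRIM24 library. Nothing said of a difference between conditions therefore has a replicate check, and no test between conditions was made. The peak lists give no read numbers, so the depth is unknown, and they hold nothing by which the labelled cell lines could be checked. The score of each peak is the authors' own, the −log10 of a p-value or of a q-value. It grows with depth, so each peak was also placed by the share of peaks of its own list that scored lower, here called its percentile. The LNCaP-abl list was the longest. Its median score was 26.1, against 6.46 under vehicle and 6.82 under DHT, and its peaks were wider (median 528 bp against 297 and 296 bp).

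TRIM24, TRIM28, TRIM33 and TRIM66 are the TIF1 group of tripartite motif proteins, which carry B-boxes and a coiled coil at one end and a PHD finger beside a bromodomain at the other. The PHD finger and bromodomain of TRIM24 read histone H3 tails, and the protein acts as a coregulator of nuclear receptors, the androgen receptor among them. SPOP is the substrate adaptor of a CUL3 ubiquitin ligase and is recurrently mutated in prostate cancer. TRIM24 is among its substrates, so that SPOP can act on the level of TRIM24 protein, which was not measured here.

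RefSeq's promoter table for GRCh38.p14 held 3 of the 5 genes. The 250 bases before a listed start of TRIM33, SPOP and TRIM66 are shown. With the gene models used, these genes had a peak over the start in every list, in LNCaP-abl alone, and in none. For TRIM66, a LNCaP-abl peak may lie at or near an outer listed start or the start of the next gene, RPL27A, as described below. TRIM24 and TRIM28, with a peak over the start under vehicle and in LNCaP-abl and not under DHT, are not shown. They are written 5′ to 3′ along each gene, all on the minus strand, with each CG in capitals. They lie at chr1:114511204-114511453 for TRIM33, chr17:49678164-49678413 for the outermost of 2 listed SPOP starts, and chr11:8658887-8659136 for the innermost of 3 listed TRIM66 starts. Starts not shown are described by their values.
TRIM33: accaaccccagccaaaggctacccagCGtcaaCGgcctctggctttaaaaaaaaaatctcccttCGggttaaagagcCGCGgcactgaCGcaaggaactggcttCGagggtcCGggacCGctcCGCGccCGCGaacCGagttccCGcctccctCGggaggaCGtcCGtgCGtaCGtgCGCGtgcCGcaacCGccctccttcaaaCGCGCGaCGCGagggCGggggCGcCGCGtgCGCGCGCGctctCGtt
SPOP: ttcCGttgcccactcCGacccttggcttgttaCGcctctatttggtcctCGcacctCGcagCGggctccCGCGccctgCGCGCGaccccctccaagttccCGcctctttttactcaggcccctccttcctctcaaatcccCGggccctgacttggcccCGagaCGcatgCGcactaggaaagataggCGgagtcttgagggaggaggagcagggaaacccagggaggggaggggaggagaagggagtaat
TRIM66: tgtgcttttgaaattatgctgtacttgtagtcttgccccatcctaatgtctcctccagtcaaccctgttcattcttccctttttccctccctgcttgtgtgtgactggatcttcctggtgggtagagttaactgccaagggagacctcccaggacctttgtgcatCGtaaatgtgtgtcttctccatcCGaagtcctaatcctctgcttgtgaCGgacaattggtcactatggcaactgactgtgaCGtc
The TRIM33 sequence held 38 CG, more than 96.7% of the 35116 promoter sequences of this length in the table, whose median was 11. The SPOP sequence held 17, more than 61.0% of promoters, and the TRIM66 sequence 4, more than 29.3%. The listed starts of a gene differed, with 20 CG before the middle TRIM66 start (more than 67.6% of promoters) and 10 before the outermost (47.8%). The other SPOP start had 21 (69.8%). The middle TRIM66 start thus had more CG than the SPOP sequence shown. The order of SPOP and TRIM66 by CG depends on which of their starts are compared. The GC content of the sequences shown was 67.2% for TRIM33, 63.2% for SPOP and 48.4% for TRIM66, against a median of 58.0%, and it was 63.2% before the middle TRIM66 start. Short motifs were searched on both strands. The androgen receptor hexamer AGAACA was found before none of the listed starts of these genes and in 12.4% of all promoters. The ETS core CCGGAA was found in none of the sequences shown, 1 time before the middle TRIM66 start, and in 14.5% of all promoters. The GC box GGGCGG occurred 2 times before TRIM33, 2 times before the middle TRIM66 start and not before the others, and in 42.6% of all promoters. These matches describe the letters in these windows only. Peaks are given in hg19 and promoter sequences in GRCh38, and no position was carried from one build to the other.

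The TRIM24 gene had a peak of its own protein at its start in LNCaP-abl cells and narrower peaks with lower scores there in LNCaP cells. The gene runs on chromosome 7 from 138145079 to 138270333 in hg19, on the plus strand. Under vehicle, the peak lay from 138144783 to 138145215, over the gene start, with a score of 8.04. Under DHT, the peak lay from 138145516 to 138145795, between 437 and 716 bp inside the gene, with a score of 7.07. In LNCaP-abl, a peak of 1368 bp lay from 138144732 to 138146099, with a score of 99.5. The vehicle and DHT peaks did not overlap and were 300 bp apart, yet each lay wholly inside the LNCaP-abl peak. The percentiles of these peaks were 64.9 under vehicle, 53.4 under DHT and 86.1 in LNCaP-abl. Each stood above the middle of its list, the DHT peak only slightly. LNCaP-abl had a further peak of 200 bp inside the gene, 16.9 kb from its start, with a score of 5.66 at percentile 8.21. No peak of this list was narrower than that one. Neither LNCaP list had a peak there.

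TRIM33 (TIF1γ), a regulator of SMAD signalling, was the only one of the 5 genes whose start lay inside a peak in all 3 lists. The gene runs on chromosome 1 from 114935399 to 115053781, on the minus strand. Under vehicle, the peak lay from 115053509 to 115054305, with a score of 11.2. Under DHT, there were a peak of 242 bp from 115053573 to 115053814 over the start, with a score of 11.3, and a second of 236 bp from 115053000 to 115053235, with a score of 4.25. In LNCaP-abl, a single peak of 1418 bp from 115052942 to 115054359, with a score of 121, covered all 3 LNCaP peaks. Percentiles of the peaks over the start were 82.0 under vehicle, 80.7 under DHT and 90.7 in LNCaP-abl, close to each other in spite of scores that differed widely. The second DHT peak stood at percentile 11.9. It lay 546 to 781 bp inside the gene and 273 bp from the vehicle peak, a stretch where the vehicle list had no peak. LNCaP-abl also had a peak inside the gene, 31.3 kb from its start, from 115022323 to 115022684. Its score of 26.9 was near the middle of that list, at percentile 50.7, and neither LNCaP list had a peak there.

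TRIM28 (KAP1), the corepressor of KRAB zinc finger proteins, had a high-scoring start peak in LNCaP-abl, one near the lowest score of the list under vehicle and none under DHT. The gene runs on chromosome 19 from 59055836 to 59062089, on the plus strand, and at 6.25 kb it is the shortest of the 5. Under vehicle, the start peak lay from 59055791 to 59056003 with a score of 2.11, rank 9724 of 9744 peaks, where the lowest score of the list was 2.02. The DHT list had no peak nearer to the start than 10.5 kb (10455 bp). In LNCaP-abl, the start peak was 1296 bp wide, from 59055345 to 59056640, with a score of 106 at percentile 87.8. The contrast of vehicle with DHT at this start rests on that vehicle peak, which is left out once the list is shortened to 7105 peaks.

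The other TRIM28 peaks lay past the end of the gene, where CHMP2A and UBE2M are the next protein-coding genes in RefSeq's order, so that they fell in the TRIM28 window without lying in TRIM28. A peak about 4.4 kb past the gene end was present in each list, with scores of 7.69 under vehicle, 8.10 under DHT and 42.8 in LNCaP-abl. Its percentiles were 61.2, 61.9 and 61.7, nearly the same place in the order of each whole list. Among peaks of chromosome 19 alone they were 62.3, 57.4 and 72.0, which are further apart. A second site, about 7.8 to 7.9 kb past the end, was also present in each list. It scored 16.5 under vehicle, 7.90 under DHT and 214 in LNCaP-abl. The percentiles here were 92.1, 60.8 and 97.9, and the LNCaP-abl peak, from 59069545 to 59070405, was the highest-scoring of the 20 peaks, at rank 435 of its list. Midpoints of the vehicle and DHT peaks lay 36 bp apart at the first of these sites and 34.5 bp apart at the second. LNCaP-abl had 2 more small peaks beyond it, with scores of 11.9 and 7.18.

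**Figure D1:**
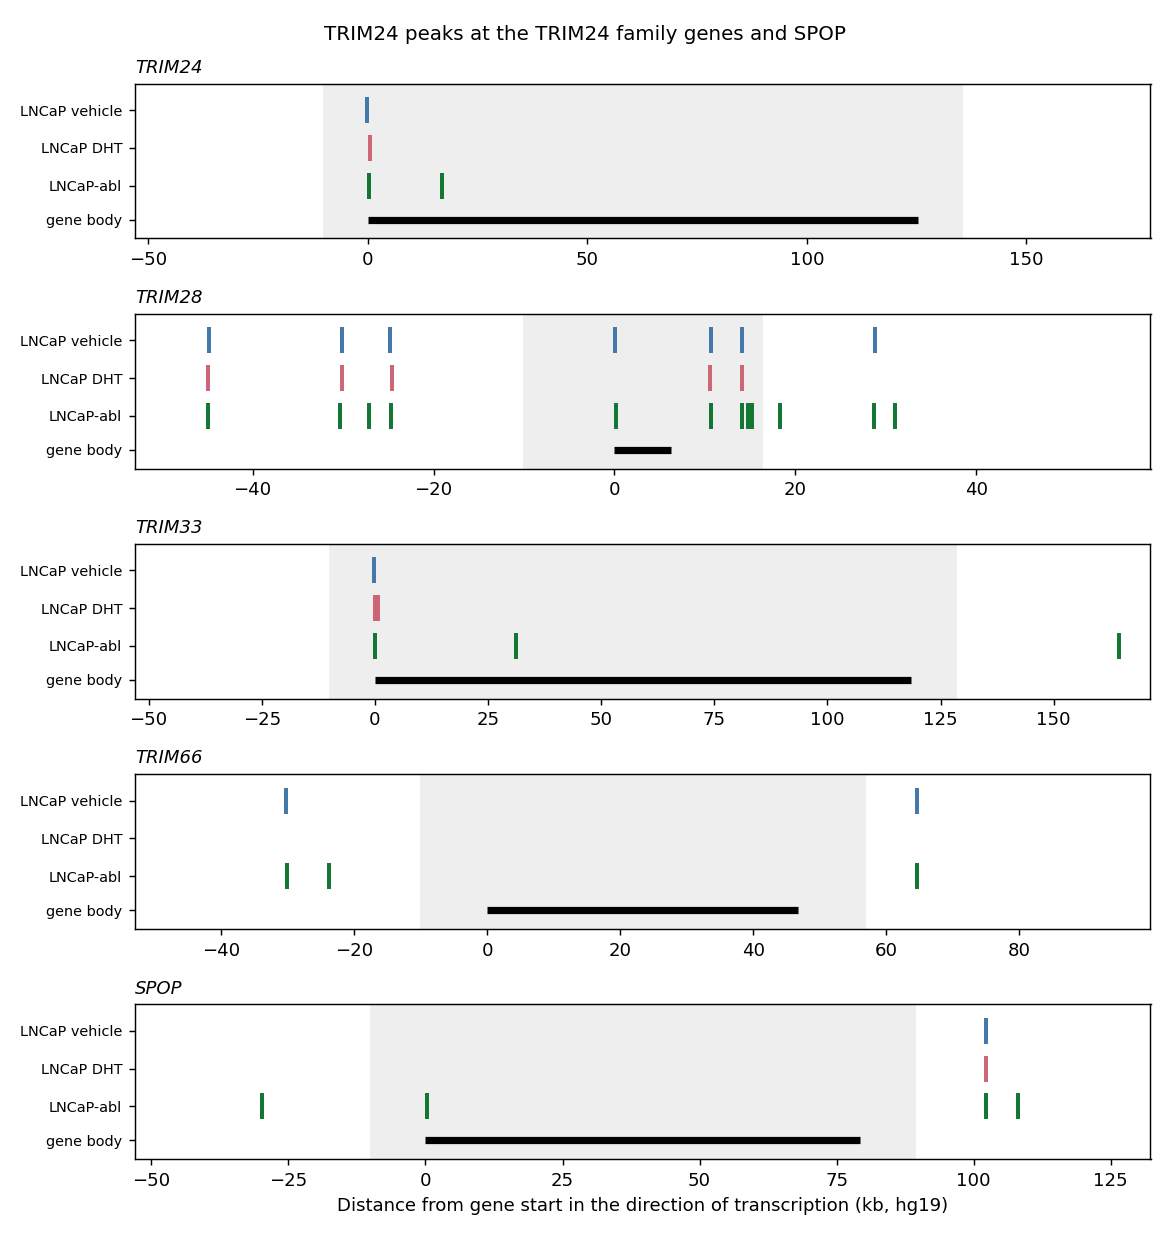
TRIM24 peaks around the 5 genes by list, with the distance from the gene start in the direction of transcription on the horizontal axis (kb, hg19). Each tick is the midpoint of a peak in that list, the black bar is the gene, and the grey area is the gene with 10 kb on both sides. The TRIM24 and TRIM33 peaks cluster at the gene start, most TRIM28 peaks lie past the gene end, and the TRIM66 area holds no peak.

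TRIM66 (TIF1δ), a relative best known from the testis, had no TRIM24 peak in its body or within 10 kb in any list. The gene model used runs on chromosome 11 from 8633587 to 8680383, on the minus strand. The LNCaP-abl peak nearest to the gene start lay from 8703770 to 8704625, 23.4 kb before the gene start, with a score of 26.0 at percentile 49.97. Under vehicle, the nearest peak to the start was 30.1 kb away, with a score of 7.29, and a LNCaP-abl peak with a score of 46.4 overlapped it. The DHT list had none within 211.8 kb. In RefSeq's order of protein-coding genes, RPL27A follows TRIM66 on this side and STK33 precedes it on the other. Nearer to the gene, 17.9 kb past its end, a site was present under vehicle with a score of 10.1 and in LNCaP-abl with a score of 86.7. The absence of a peak holds for this gene model. RefSeq lists 3 TRIM66 starts in GRCh38 that span 24.3 kb. The nearest LNCaP-abl peak lay from −24242 to −23387 bp relative to the gene start used here, a like distance. It may therefore lie at or near an outer TRIM66 start, or at or near the start of RPL27A, and these cannot be told apart here. A match by position was not tested, because the builds differ.

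SPOP, whose ligase has TRIM24 as a substrate, had a TRIM24 peak over its start in LNCaP-abl and none in its window in either LNCaP list. The gene runs on chromosome 17 from 47676246 to 47755525, on the minus strand. The LNCaP-abl peak lay from 47754845 to 47755585, from 60 bp before to 680 bp inside the start, with a score of 16.6. It stood at percentile 39.7, rank 12396, below the median of its list and below the other 3 start peaks of LNCaP-abl. In lists cut to equal length (7105 peaks, by score) the SPOP peak was left out, and SPOP had no peak in any list. The nearest LNCaP peaks lay past the other end of the gene. A site 23.03 to 23.04 kb past the gene end was present in all 3 lists, with scores of 7.23 under vehicle, 4.89 under DHT and 15.4 in LNCaP-abl. That site and the SPOP start had like scores in LNCaP-abl, while only the former had a peak in LNCaP.

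**Figure D2:**
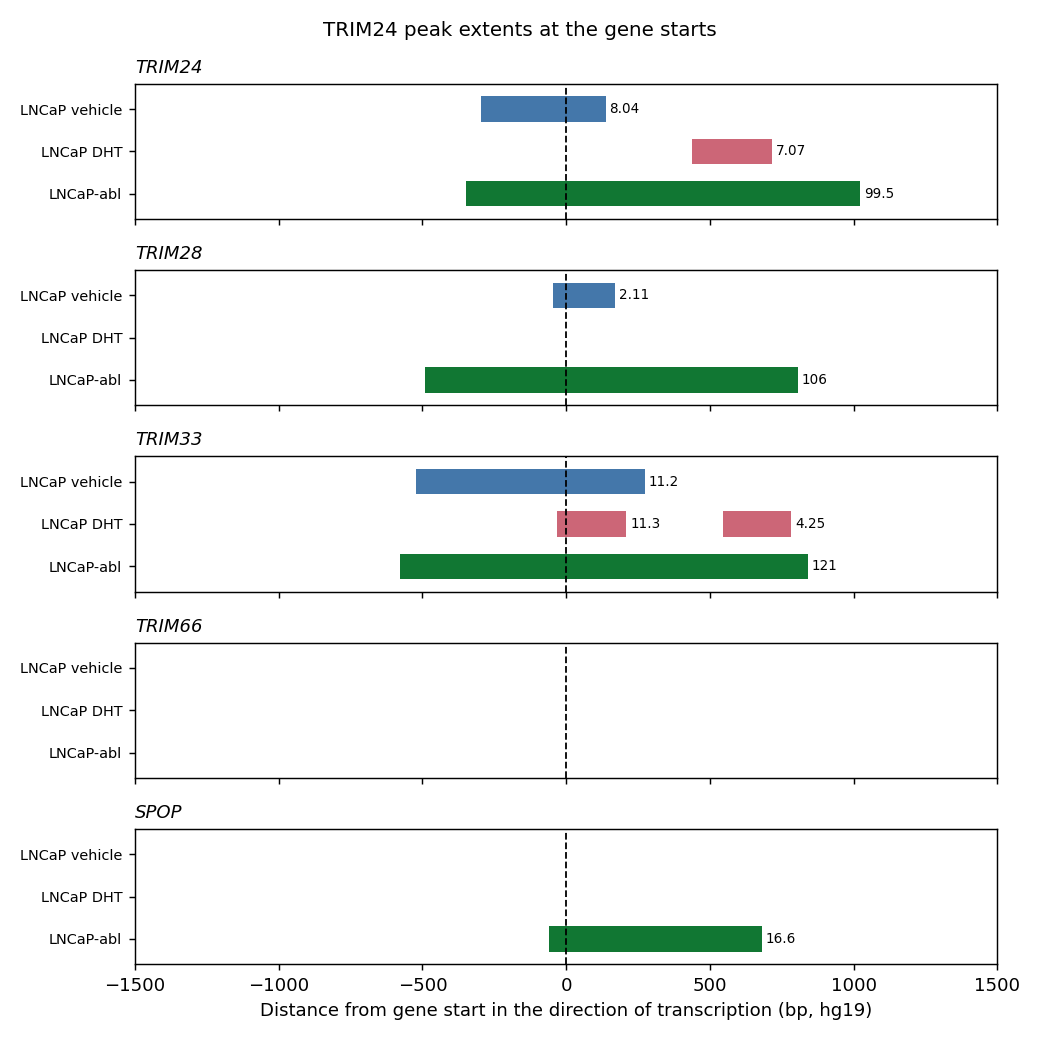
Extent of each TRIM24 peak within 1500 bp of the 5 gene starts, by list, with the distance from the start on the horizontal axis (bp, hg19, direction of transcription) and the score beside each bar. LNCaP-abl peaks extend from 347 bp before to 1020 bp after the start at TRIM24 and from 578 bp before to 839 bp after it at TRIM33, and cover every LNCaP peak shown.

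Within 1 kb of the start of the gene models used, LNCaP-abl had a peak at 4 of the 5 genes, vehicle at 3 and DHT at 2. For scale, 1.25% of all side-by-side windows of 2001 bp held the midpoint of a LNCaP-abl peak, 0.568% that of a vehicle peak and 0.427% that of a DHT peak. Those windows cover the whole genome and not gene starts, whose own share needs an hg19 annotation and was not analysed here. They were also scored by peak midpoints, whereas genes were counted by the gap from peak edge to start. Every peak counted at a start also had its midpoint within 1 kb of it. With the gene start itself required inside the peak, DHT had TRIM33 alone, since its TRIM24 peak began 437 bp downstream. The LNCaP-abl start peaks at TRIM24, TRIM28 and TRIM33 were wider than 93.0%, 91.5% and 94.0% of their list, and the SPOP peak of 741 bp was wider than 66.1%. Under vehicle, the TRIM33 peak of 797 bp was wider than 96.4% of its list and the TRIM28 peak of 213 bp wider than 21.6%.

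The windows with 10 kb on both sides held a peak at 4 of the 5 genes in LNCaP-abl and at 3 in each LNCaP list. Of windows as long as that of TRIM24, 40.2% held a LNCaP-abl peak, 25.4% a vehicle peak and 21.1% a DHT peak. For the length of the TRIM33 window these shares were 39.3%, 24.4% and 20.4%. The short TRIM28 window gave 12.7%, 6.33% and 4.96%. The SPOP length gave 32.8%, 19.3% and 15.8%, and the TRIM66 length, where no list had a peak, 25.5%, 14.1% and 11.4%. A peak in a window of the longer kind was thus not unusual in these lists. Peaks just inside the 10 kb limit included the LNCaP-abl peak 8.99 kb past the end of TRIM28, and the nearest outside it was the LNCaP-abl peak 12.0 kb past that end, with a score of 80.6.

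**Figure D3:**
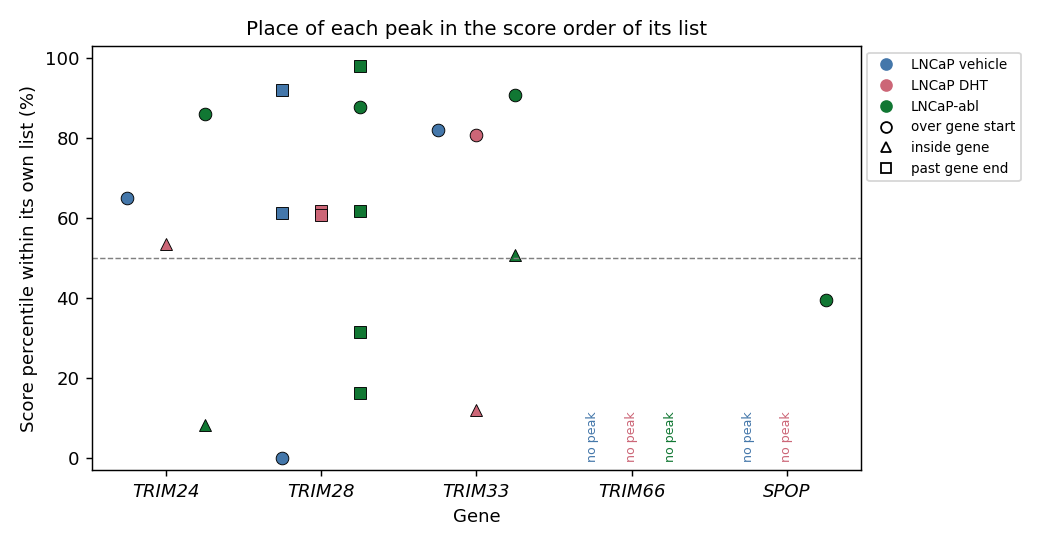
Percentile of each of the 20 peaks in the score order of its own list (%), by gene, with colour for the list and shape for the place of the peak. The dashed line is the list's middle; LNCaP-abl start peaks stand at 86.1 to 90.7 for TRIM24, TRIM28 and TRIM33 and at 39.7 for SPOP.

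All LNCaP peaks in the windows of these genes, those past the end of TRIM28 included, were found in LNCaP-abl. This held for 5 of 5 vehicle peaks and 5 of 5 DHT peaks. In the whole lists the shares were 88.4% for vehicle and 88.8% for DHT. With a reciprocal overlap of at least 50%, 3 vehicle and 1 DHT peak were found there. The others lay wholly inside LNCaP-abl peaks over 2 times their width. Among the 10 peaks of LNCaP-abl at these genes, 5 overlapped a vehicle peak, against 36.0% of that list, and 4 overlapped a DHT peak, against 27.4%. Between the LNCaP lists, 3 of 5 vehicle peaks overlapped a DHT peak (48.6% of all vehicle peaks), and 3 of 5 DHT peaks a vehicle peak (66.7% of all DHT peaks). The sites these lists shared were the TRIM33 start and the sites past the end of TRIM28, which do not lie in that gene. With so few peaks, these counts do not set the genes apart from the rest of their lists. The 5 LNCaP-abl peaks without a LNCaP partner were the SPOP start, the sites inside TRIM24 and TRIM33 and the 2 small peaks past TRIM28. Their scores ran from 5.66 to 26.9, and those with a partner ran from 42.8 to 214. For the whole LNCaP-abl list, neither the share nor the scores of peaks without a partner were analysed. The split is therefore not shown to be particular to these genes.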

How the data were processed

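The data are 3 TRIM24 peak lists, with 1 library for each of 3 conditions. The 3 input libraries were left aside. The submitters' processing notes name MACS2 2.0, Bowtie 0.12.7, FastQC 0.10.0 and the build hg19. For control, filters and cutoff, nothing is given in the sources used here. Scores, as deposited, are the −log10 of a p-value, or of a q-value; which of them the lists do not say.

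Gene positions came with the definition of the gene set. The 5 genes, windows and motifs were chosen with earlier results of these data known, and every peak in the windows was eligible to be named. Starts were converted to counting from 1. Overlap meant at least 1 bp, computed with Python 3.11.15 and numpy 2.4.6, checked with bedtools 2.31.1 and tested on simulated lists. Genome windows were laid side by side on chromosomes 1 to 22 and X up to the last peak. Gene strands follow the RefSeq table for TRIM33, TRIM66 and SPOP and general knowledge for TRIM24 and TRIM28. Promoters are RefSeq sequences of GRCh38.p14. Figures used matplotlib 3.10.9. Other genes of the SPOP, TRIM28, TRIM33 and coregulator pathways were planned and not analysed, since they need an hg19 annotation. Alternatives changed the window, the list length, the score minimum, the overlap rule and the distance to the start.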

Additional observations from a re-analysis of the deposited data

How the results depend on the processing

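Values are given in the order vehicle, DHT, LNCaP-abl. Peaks at the 5 genes numbered 5, 5 and 10. They became 1, 3 and 6 with the gene body alone, which leaves out 8 peaks past the end of TRIM28 and 2 vehicle midpoints before a start, and 12, 9 and 24 with 50 kb on both sides. At or above a score of 26.1, the median of the LNCaP-abl list, they were 0, 0 and 6. Scores of 16.5 under vehicle and 11.3 under DHT already stood at percentiles 92.1 and 80.7 of their lists. Most LNCaP peaks thus fall below this minimum, so a count of 0 there says little about these genes. Without the region past the end of TRIM28, chosen after seeing the data, peaks at the 5 genes numbered 3, 3 and 6. LNCaP-abl had 6 in the better-scoring 50% of each list and 4 in lists of 7105 peaks. Genes with a vehicle peak went from 3 to 1 with the gene body alone, to 5 with 50 kb and to 0 at the score minimum, where DHT also had 0. Genes with a DHT peak at the start went from 2 to 1 with the start required inside the peak. With a reciprocal overlap of at least 50%, 3 vehicle and 1 DHT peak were found in LNCaP-abl, and 3 and 1 LNCaP-abl peaks in vehicle and DHT. Each LNCaP peak that failed lay wholly inside a LNCaP-abl peak over 2 times its width. In lists of 7105 peaks, 3 of 4 vehicle peaks were found in LNCaP-abl and 3 of 4 LNCaP-abl peaks in vehicle. When a gap under 1 kb also counted as shared, 5 DHT peaks were found in vehicle. The other 49 values of these results stayed within 1.5 times. Percentiles taken on the peak's own chromosome moved by at most 10.3 points, with a median of 1.63. Only 2 of the 20 stayed within the 95% binomial interval of the percentile in the whole list. No paired analysis was possible because there was 1 library per condition, and leaving out a library was not possible either. For changes given without a reason, the cause was not tested. The unknown depth limits any reading of absent peaks.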
